A study of Homo sapiens with 8 samples.

Results

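The circadian clock genes described here are the 10 rows of the deposited expression table with the gene symbols PER1, PER2, PER3, CRY1, CRY2, NR1D1, NR1D2, BHLHE40, CLOCK and DBP, out of 61806 genes in the table. All 10 had enough reads to be tested, as did 14893 genes of the table. mRNA was sequenced from N/TERT-1 cells, an immortalized line of human epidermal keratinocytes with a wildtype genotype, grown in serum-free medium that held recombinant epidermal growth factor and bovine pituitary extract. Cells of 4 libraries received ethanol, the solvent control, and cells of 4 libraries received oligomycin, an inhibitor of the mitochondrial ATP synthase, together with antimycin A, an inhibitor of respiratory complex III (O/A). O/A is defined, for imaging experiments of the same work, as 10 μM oligomycin with 4 μM antimycin A. Treatment lasted 4 hours, and the libraries of each condition came from 4 independent experiments. All libraries are of 1 cell line at 1 time after treatment, and neither the clock time of harvest nor any step that synchronized the cells is given in the sources used here, so the values are levels at 1 point and say nothing about rhythm.

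The mammalian clock is a loop of transcription. CLOCK and its partner BMAL1 bind E-boxes in the promoters of the PER and CRY genes and of NR1D1 and NR1D2, and the PER and CRY proteins then repress CLOCK and BMAL1. NR1D1 and NR1D2 encode the nuclear receptors REV-ERB alpha and REV-ERB beta, which repress BMAL1, and DBP is a clock-driven activator that binds D-boxes. Besides their rhythm, PER1, BHLHE40 and some other members are known to respond within hours to signals such as glucocorticoids, cAMP and stress, and keratinocytes of the epidermis have a clock of their own.

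The libraries held 17210404 to 20999927 counted reads in ethanol and 17689760 to 19263046 in O/A. No pair of libraries within a condition agreed within sampling noise, with chi-square values per degree of freedom of 1.76 to 5.74, against 52.9 to 64.0 between the conditions. The summed level of 6 keratinocyte markers was 12751 to 13410 CPM in ethanol and 11871 to 12389 in O/A. CPM is the count scaled by the library total and a TMM factor, which evens out library composition. KRT5 had the largest part of this sum, at 5693 to 6046 in ethanol and 4599 to 4941 in O/A. Of the 6, KRT5 and SFN were downregulated. ITGA6 and LAMB3 were higher in every O/A library, at 1.10 and 1.18 times the ethanol level, and were not called. KRT14 and COL17A1 overlapped between the conditions and were not called either. Of 6 fibroblast markers, 5 had at most 10 counts in every library, and the sum was 21.3 to 26.3 CPM in ethanol and 22.2 to 24.2 in O/A. Nearly all of this sum was COL1A1, at 376 to 557 counts per library. The sum of 5 melanocyte markers was 8.66 to 10.9 in ethanol and 8.44 to 10.4 in O/A, with MLANA and TYR at 0 in every library. It came mostly from MITF, at 128 to 168 counts per library, and from PMEL, at 17 to 45. The sum of 3 leukocyte markers, which came almost wholly from CD68, was 0.861 to 1.31 in ethanol and 1.43 to 1.95 in O/A. CD68, a lysosomal protein gene, was itself called upregulated. In bulk libraries such as these, fewer cells of a type and less RNA per cell cannot be told apart.

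After O/A treatment, 5 of the 10 clock genes were upregulated and 0 were downregulated. The upregulated genes were NR1D1, PER1, NR1D2, PER2 and CRY2, with fold changes from 1.31 to 2.26. All of them encode repressors of the loop, as do the uncalled PER3, CRY1 and BHLHE40. Among the members only CLOCK, an activator, and DBP, an output gene, are not repressors. A call needed an adjusted p-value no higher than 0.05 in the quasi-likelihood test of edgeR and a log2(FC), the log2 fold change of O/A against ethanol, beyond 0.25 in size. By this rule 15.8% of all genes tested were called higher and 18.9% lower. Counting the adjusted p-value alone, 7 of the 10 passed, 6 of them higher and 1 lower, where 53.7% of all genes tested passed in either direction. Every O/A library lay above every ethanol library for 6 members, beside 22.8% of all genes, and below every ethanol library for 1 member, beside 24.8%. The median log2(FC) of the members was 0.30, while the median of all genes tested was -0.0004. Since so many genes of the table differed between the conditions, the share of members called is read against these backgrounds, and no test of the group was made. The members were chosen with earlier results of these data known, so this share is a description only.

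**Figure D1:**
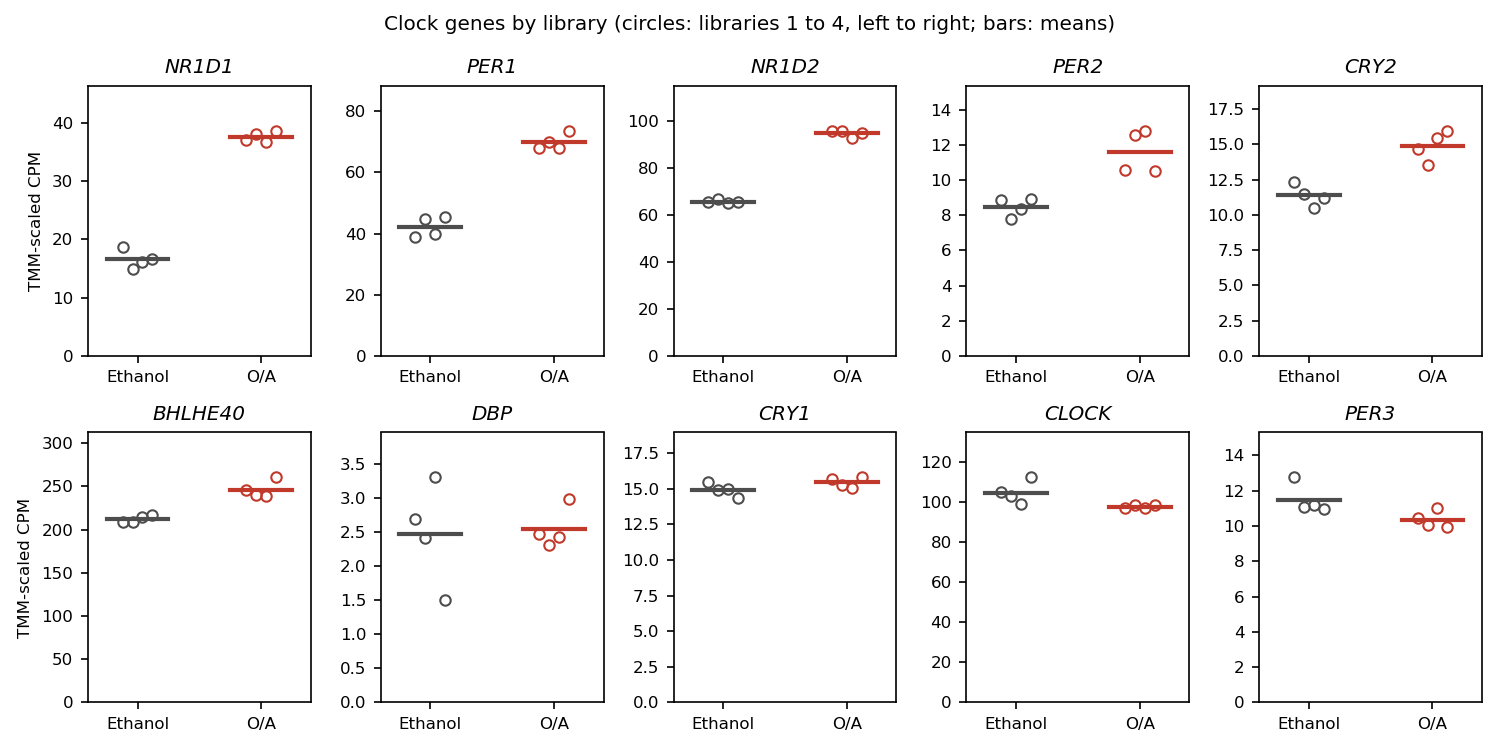
TMM-scaled CPM (vertical axes, each from 0) of the 10 clock genes in the 4 ethanol and 4 O/A libraries, ordered by log2(FC). Circles are libraries and bars are means. For NR1D1, PER1, NR1D2, PER2, CRY2 and BHLHE40 all 4 O/A libraries lie above all 4 ethanol libraries, and for CLOCK all 4 lie below.

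The largest change among the members was that of NR1D1 (ENSG00000126368, chr17:40092793-40100589, minus strand, GRCh38). Its level, in TMM-scaled CPM, was 18.7, 14.8, 16.2 and 16.7 in ethanol libraries 1 to 4 and 37.0, 38.1, 36.7 and 38.6 in O/A libraries 1 to 4. The lowest O/A library was far above the highest ethanol library, and the O/A libraries were the tighter group, at 37.6 ± 0.899 (SD, n = 4) against 16.6 ± 1.58 (SD, n = 4). The log2(FC) of NR1D1 was 1.18 (standard error, SE, of 0.060, edgeR adjusted p = 3.20e-23), which ranked 263 of the 14893 genes from the highest rise down, while 516 genes, NR1D1 included, changed at least as much in either direction. These values rest on 265 to 356 raw counts in each ethanol library and 645 to 708 in each O/A library. NR1D1 shares 473 of its 2630 exonic bases (18.0%) with the end of THRA, the thyroid hormone receptor alpha gene, which runs on the opposite strand. THRA counts ran from 194 to 271 in ethanol and were lower in O/A, 118 to 154 (log2(FC) -0.67, edgeR adjusted p = 2.83e-08, downregulated), so the neighbours on opposite strands moved in opposite directions. Whether reads were counted by strand is not given in the sources used here, and how many reads of the shared bases went to either gene was not tested.

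NR1D2 (ENSG00000174738, chr3:23945286-23980617, plus strand) encodes the other REV-ERB receptor and was the more abundant of the pair. Its CPM was 65.6, 66.9, 65.0 and 65.4 in ethanol libraries 1 to 4 and 95.6, 95.8, 92.9 and 94.8 in the O/A libraries. Its libraries were uniform, with a coefficient of variation of 1.2% in ethanol, the lowest of the members, and 1.4% in O/A, both below the 2.8% and 2.4% that counting error alone would give on average. The log2(FC) was 0.53 (SE 0.035, edgeR adjusted p = 2.04e-18). The rise of NR1D2 was smaller than that of NR1D1 on the log2 scale, and the 95% intervals of both, 0.46 to 0.60 and 1.06 to 1.30, did not overlap.

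Among the PER genes, which encode the period repressors, PER1 and PER2 were upregulated and PER3 was not called. PER1 (ENSG00000179094, chr17:8140472-8156506, minus strand) had a CPM of 39.1, 44.9, 39.9 and 45.3 in ethanol libraries 1 to 4 and 68.1, 69.9, 68.0 and 73.6 in the O/A libraries. The groups were apart by more than the range of either, and the log2(FC) was 0.72 (SE 0.046, edgeR adjusted p = 9.27e-19), the next largest after NR1D1. PER2 (ENSG00000132326, chr2:238244044-238290102, minus strand) was near the low end of the members, with a CPM of 8.88, 7.78, 8.36 and 8.92 in ethanol and 10.6, 12.6, 12.8 and 10.5 in O/A. O/A libraries 2 and 3 stood above O/A libraries 1 and 4, but all 4 exceeded the ethanol libraries, and the log2(FC) was 0.45 (SE 0.091, edgeR adjusted p = 3.06e-05). PER3 (ENSG00000049246, chr1:7784291-7845177, plus strand) had a CPM of 12.7, 11.1, 11.2 and 10.9 in ethanol and 10.5, 10.1, 11.0 and 9.93 in O/A. O/A library 3 lay within the ethanol range, and ethanol library 1 stood above the other libraries. The log2(FC) of PER3 was -0.15, with a 95% interval from -0.32 to 0.02 (adjusted p = 0.138), so the data leave room for a fall of that size or for none, and the interval ends below the rise of PER2. Without ethanol library 1 the log2(FC) was -0.09.

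The cryptochromes CRY1 and CRY2, partners of the PER proteins in repression, also differed from each other. CRY2 (ENSG00000121671, chr11:45847118-45883248, plus strand) had a CPM of 12.3, 11.5, 10.5 and 11.2 in ethanol libraries 1 to 4 and 14.6, 13.6, 15.5 and 16.0 in the O/A libraries. All O/A libraries were higher than all ethanol libraries, and the log2(FC) was 0.39 (SE 0.079, edgeR adjusted p = 3.89e-05). CRY1 (ENSG00000008405, chr12:106991364-107093549, minus strand) had a CPM of 15.5, 14.9, 15.0 and 14.3 in ethanol and 15.7, 15.3, 15.0 and 15.8 in O/A. The groups overlapped, and the log2(FC) of 0.05 had a 95% interval from -0.09 to 0.19 (adjusted p = 0.578), which leaves out a rise as large as the value of CRY2. The calls of CRY2 and PER2 depended on the scale, since both lay within the fold threshold with limma on log2(FPKM + 1), at 0.23 and 0.24, where FPKM is the count scaled by exonic length and library total.

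BHLHE40 (ENSG00000134107, chr3:4979437-4985323, plus strand), a repressor that competes with CLOCK and BMAL1 for E-boxes, was the most abundant member. Its CPM was 209, 209, 214 and 217 in ethanol libraries 1 to 4 and 246, 239.8, 239 and 260.2 in the O/A libraries. Every O/A library was higher, by a small step, and the log2(FC) of 0.21 (SE 0.029, edgeR adjusted p = 8.28e-09) stayed within the fold threshold, so the gene was not called. An antisense gene, BHLHE40-AS1, shares 451 bases with it and had only 19 to 33 counts per library, against 3728 to 4614 for BHLHE40.

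CLOCK, the activator among the members, had values that leaned the other way. CLOCK (ENSG00000134852, chr4:55427903-55546909, minus strand) had a CPM of 105, 103, 99.1 and 112 in ethanol and 97.1, 98.7, 97.1 and 98.7 in O/A. The O/A libraries lay just under the lowest ethanol library. The log2(FC) was -0.10 (SE 0.035, edgeR adjusted p = 0.0115), within the fold threshold and not called. Ethanol library 4 carried much of it, since without that library the log2(FC) was -0.06 with an adjusted p of 0.152, and DESeq2 gave an adjusted p of 0.0540 on all libraries.

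DBP (ENSG00000105516, chr19:48630030-48637379, minus strand), the output factor of the group, was close to the limit of what this depth can measure, with 32 to 58 raw counts per library. Its CPM was 2.69, 2.41, 3.30 and 1.50 in ethanol and 2.47, 2.31, 2.43 and 2.98 in O/A, so the ethanol libraries spanned the O/A libraries on both sides. The coefficient of variation was 30.2% in ethanol, against 14.8% from counting error alone. The log2(FC) of 0.06 had a 95% interval from -0.31 to 0.44 (adjusted p = 0.810), an interval that holds both the value of CRY2 and that of PER3, and its sign turned to -0.13 without ethanol library 4 and to -0.02 without O/A library 4. DBP shares 661 exonic bases with SPHK2 on the opposite strand, which had 71 to 198 counts per library, more than DBP itself. An exact permutation test of 4 libraries against 4, two-sided, gave 0.0286, the smallest p this design allows, for the 7 members whose groups did not overlap, and 0.0571 for PER3, 0.143 for CRY1 and 0.800 for DBP.

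**Figure D2:**
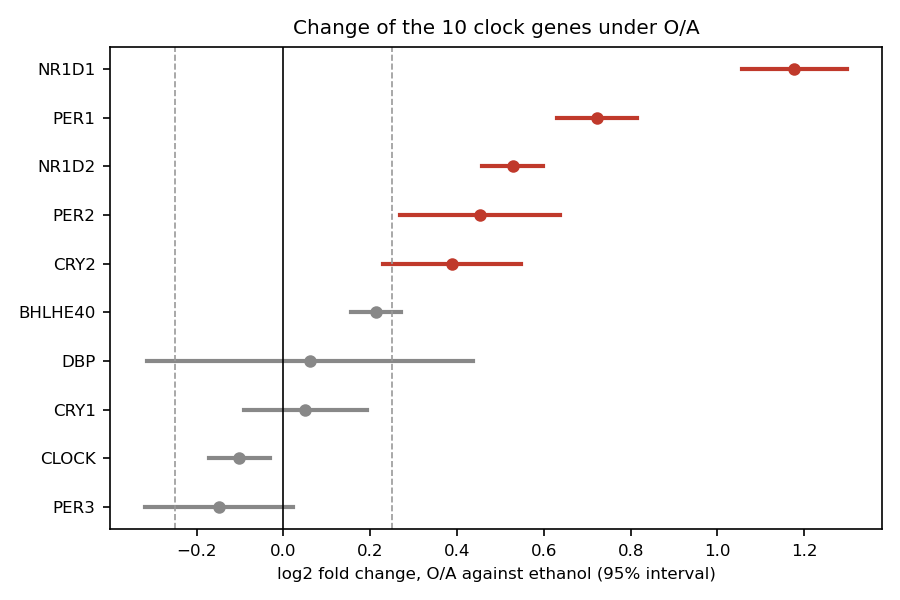
Log2 fold change of O/A against ethanol (horizontal axis) of the 10 clock genes, with 95% intervals from edgeR. Dashed lines mark the threshold of 0.25 in each direction, and red points are upregulated genes. The values run from -0.15 for PER3 to 1.18 for NR1D1, and BHLHE40, at 0.21, lies inside the threshold.

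Levels were compared between genes per length, as FPKM. In ethanol the order was BHLHE40 at 61.3 FPKM, NR1D2 at 11.5, CLOCK at 9.24, NR1D1 at 6.42, PER1 at 6.13, CRY1 at 3.17, CRY2 at 1.87, PER3 at 1.44, PER2 at 1.26 and DBP at 0.388 (means of 4 libraries). Only NR1D1 and PER1 had overlapping ranges among neighbours in this order, so these neighbours did not differ beyond their spread. BHLHE40 exceeded 96.3% of the genes tested in mean FPKM and DBP exceeded 11.2% of them. In O/A the order became BHLHE40 at 68.9 FPKM, NR1D2 at 16.1, NR1D1 at 14.1, PER1 at 9.83, CLOCK at 8.35, CRY1 at 3.18, CRY2 at 2.37, PER2 at 1.66, PER3 at 1.26 and DBP at 0.385, and no neighbours overlapped. NR1D1 and PER1 thus passed CLOCK, and PER2 passed PER3.

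The balance between paralogs moved accordingly, which is given here as a description of pairs chosen after their values were seen. Per length, NR1D1 stood at 0.557 ± 0.0565 (SD, n = 4) of NR1D2 in ethanol and at 0.874 ± 0.0182 (SD, n = 4) in O/A. PER1 stood at 4.30 ± 0.576 times PER3 in ethanol and at 7.85 ± 0.620 times in O/A (SD, n = 4). CRY2 stood at 0.589 ± 0.0317 of CRY1 in ethanol and at 0.745 ± 0.0518 in O/A (SD, n = 4). In each of these ratios all O/A libraries lay above all ethanol libraries.

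Promoter sequence is shown for both REV-ERB genes, which rose together, and for PER1 and PER3, paralogs of which the first rose and the other was not called. The windows are the 250 bases before a transcript start in RefSeq (GRCh38.p14), written 5′ to 3′ on the strand of the gene. Lower case is the sequence and capitals mark matches, on either strand, to the E-box CACGTG, its variant CACGTT, the ROR element AGGTCA or the D-box TTATGTAA or TTATGCAA. The stretch of NR1D1 is chr17:40100590-40100839, that of NR1D2 is chr3:23945871-23946120 (before its other, downstream start), that of PER1 is chr17:8152436-8152654 and that of PER3 is chr1:7784041-7784290. The last 31 bases of the PER1 window are part of an exon in another annotated transcript and are not shown.
NR1D1: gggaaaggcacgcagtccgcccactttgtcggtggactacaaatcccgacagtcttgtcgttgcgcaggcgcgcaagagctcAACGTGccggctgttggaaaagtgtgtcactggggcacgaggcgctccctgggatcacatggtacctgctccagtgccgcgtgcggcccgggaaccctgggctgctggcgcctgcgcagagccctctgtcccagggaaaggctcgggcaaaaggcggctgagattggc
NR1D2: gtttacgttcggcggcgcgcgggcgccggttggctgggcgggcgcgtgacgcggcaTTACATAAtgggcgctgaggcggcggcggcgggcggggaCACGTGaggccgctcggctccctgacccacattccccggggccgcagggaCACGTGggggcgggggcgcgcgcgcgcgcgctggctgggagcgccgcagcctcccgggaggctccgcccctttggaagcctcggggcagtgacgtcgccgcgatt
PER1: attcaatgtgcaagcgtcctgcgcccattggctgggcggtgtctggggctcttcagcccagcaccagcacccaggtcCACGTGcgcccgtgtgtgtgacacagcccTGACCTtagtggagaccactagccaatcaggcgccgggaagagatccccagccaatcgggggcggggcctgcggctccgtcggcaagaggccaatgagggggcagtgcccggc
PER3: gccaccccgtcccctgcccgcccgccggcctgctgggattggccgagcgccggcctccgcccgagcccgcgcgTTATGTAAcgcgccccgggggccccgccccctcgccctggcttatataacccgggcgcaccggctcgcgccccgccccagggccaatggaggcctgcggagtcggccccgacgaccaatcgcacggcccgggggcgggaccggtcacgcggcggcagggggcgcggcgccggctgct

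RefSeq windows were found for all 10 members, 14 windows in all, and the same letters were counted in 35116 windows of all genes. The printed NR1D2 window holds 2 E-boxes, at -155 to -150 and -105 to -100 from the start, and a D-box at -194 to -187. The other window of NR1D2, before its upstream start, holds no match. PER1 holds an E-box at -173 to -168, a ROR element at -144 to -139 and, in the part not shown, a D-box at -30 to -23. NR1D1 holds the E-box variant alone, at -168 to -163, and the printed PER3 window holds a D-box alone, at -177 to -170. The other window of PER3 holds no match. The E-box was found in 3 of the 14 member windows (PER1, NR1D2 and BHLHE40), and 6.34% of all windows hold it. The variant was found in 5 of the 14 (NR1D1, PER2, CRY1, CRY2 and CLOCK), beside 4.55% of all windows. D-boxes were found in 3 of the 14 (PER1, NR1D2 and PER3), beside 1.61% of windows. ROR elements were found in 3 of the 14 (PER1 and both windows of CRY2), beside 12.1%. The window of PER2 is not printed because 216 of its 250 bases are exonic in other transcripts. Its match was counted all the same. The CRY2 window that holds the variant has 126 exonic bases of 250, and its matches were counted too. DBP had no match. The cAMP response element TGACGTCA and the ATF4 element TGATGNAA were in 0 member windows, beside 1.65% and 3.14% of all windows. Called and uncalled members both held E-box letters, as CRY1, CLOCK and BHLHE40 did, and a match of letters describes the window only.

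**Figure D3:**
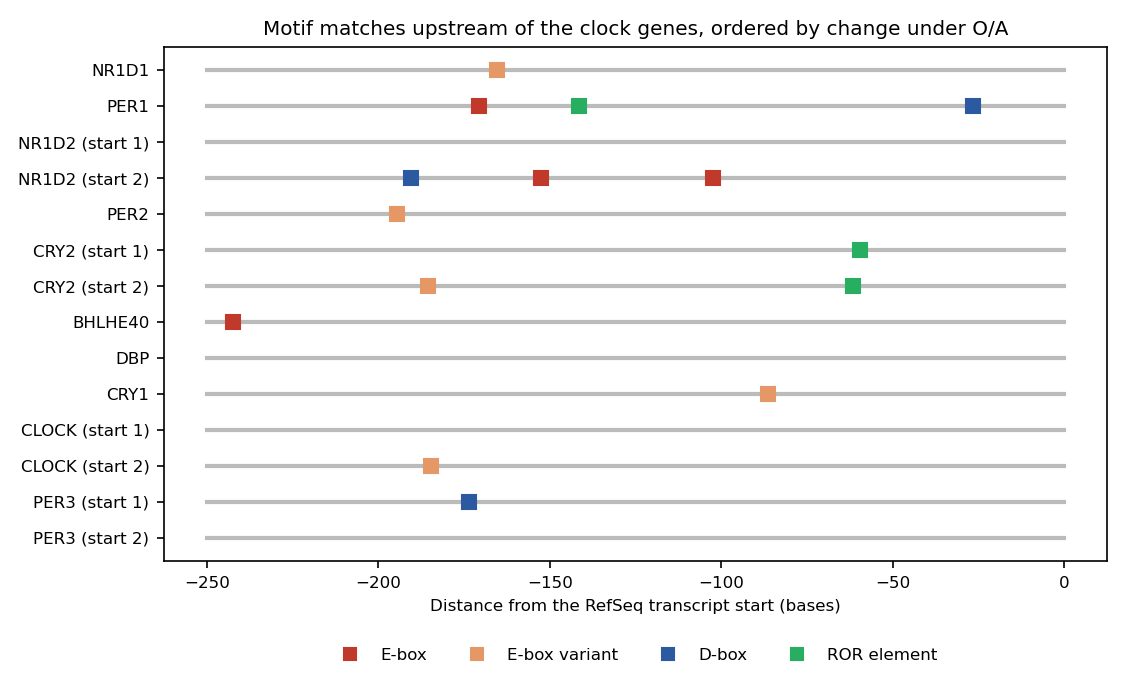
Positions of motif matches in the 250 bases before each RefSeq transcript start of the 10 clock genes (horizontal axis, bases from the start), ordered from the highest to the lowest log2(FC). Squares are matches, coloured by motif. NR1D2 and PER1 hold 3 matches each in a window, and DBP holds none.

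The rest of the clock pathway was read from 45 further genes in 7 lists, written from general knowledge. Of these, 40 were tested, 13 were upregulated and 4 downregulated, and 23 were not called, with log2(FC) from -0.28 to 0.31. The backgrounds are the 15.8% and 18.9% given above, and the median log2(FC) of the 40 was 0.09. The lists were chosen with earlier results of these data known, so these counts are a description only. RORA and RORB, activators that oppose the REV-ERBs, had at most 7 counts in any library and were not tested, nor were HLF, ZBTB16 and NR4A3.

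Among the activators, BMAL1, listed under its older symbol ARNTL and the partner of CLOCK, was upregulated with a log2(FC) of 0.62 (SE 0.045, edgeR adjusted p = 4.79e-17). It had a CPM of 32.5 to 34.8 in ethanol and 50.7 to 53.5 in O/A, so the REV-ERB genes and the gene they are known to repress were higher in the same libraries. Per length, BMAL1 stood at 0.536 ± 0.0263 of CLOCK in ethanol and at 0.885 ± 0.0231 in O/A (SD, n = 4), a pair also chosen after its values were seen. BMAL2 was higher in every O/A library, but its log2(FC) of 0.18 (edgeR adjusted p = 8.85e-07) stayed within the fold threshold, so it was not called. NPAS2 (0.01) overlapped between the conditions and was not called.

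Among 4 further repressors, NFIL3, which competes with DBP for D-boxes, had the largest log2(FC) of the clock lists, 1.71 (SE 0.057, edgeR adjusted p = 7.29e-26), with a CPM of 19.5 to 22.5 in ethanol and 61.6 to 73.2 in O/A. NFIL3 stood at 28.8 ± 9.85 times DBP per length in ethanol and at 85.8 ± 13.9 times in O/A (SD, n = 4). In ethanol this ratio ran from 21.5 to 43.0, with DBP at 32 to 58 counts per library. The pair was chosen after its values were seen, and DBP itself was not called. CIART, a repressor of CLOCK and BMAL1, was called at a log2(FC) of 1.31 on few reads, 3 to 10 counts in ethanol libraries and 10 to 26 in O/A libraries, and lay at 0.21 with limma on log2(FPKM + 1). TIMELESS and BHLHE41 were not called. TEF, a relative of DBP that binds the same D-boxes, was upregulated at 0.33, a call lost on that scale, where the value was 0.22.

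Of 9 genes that act on the stability of PER and CRY proteins, 2 were upregulated and 2 downregulated. The casein kinases CSNK1E (0.29) and CSNK1A1 (0.25) lay near the fold threshold and lost the call in 3 and 7 alternatives, CSNK1A1 among them without ethanol library 2 (0.23) and without O/A library 1 (0.23). BTRC (-0.27), a ligase subunit that targets PER proteins, lost it in 3, at -0.24 without ethanol library 3, -0.22 without O/A library 3 and -0.25 without O/A library 4. USP2 (-0.37), a deubiquitinase, had 41 to 91 counts per library and kept the call in 6 of 15 alternatives, and it lost it without ethanol library 1, 3 or 4 and without O/A library 2 or 4, with adjusted p-values of 0.0555 to 0.148 in edgeR. Among 7 cofactors, SIRT1 (0.50), a deacetylase, and CREBBP (0.39), an acetyltransferase, were upregulated and 5 were not called, with log2(FC) from -0.14 to 0.13.

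Of 6 clock-controlled output genes, 2 were upregulated and 1 was downregulated. NAMPT, the rate-limiting enzyme of NAD salvage, had a CPM of 286 to 293 in ethanol and 498 to 546 in O/A (log2(FC) 0.86, SE 0.027, edgeR adjusted p = 6.60e-32). KLF9, a transcription factor that restrains keratinocyte proliferation, had a log2(FC) of 0.43. WEE1, a kinase that holds back entry into mitosis, fell from 41.8 to 42.9 CPM in ethanol to 18.9 to 23.8 in O/A (log2(FC) -1.02, SE 0.057, edgeR adjusted p = 1.05e-21). AQP3 (0.31), a water and glycerol channel, was not called on all libraries and was called without ethanol library 3 (0.44) or without O/A library 4 (0.43). NAMPT and WEE1, both known E-box targets of CLOCK and BMAL1, thus moved in opposite directions.

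The last list held 12 genes of the glucocorticoid and cAMP routes, which are known to induce PER1, and 10 of them were tested. DUSP1, a phosphatase of MAP kinases, rose with a log2(FC) of 1.45, TSC22D3, the glucocorticoid-induced leucine zipper gene, with 1.33, and CREM, a cAMP-responsive factor, with 0.44. Their edgeR adjusted p-values were 2.11e-22, 2.58e-11 and 5.78e-06. SIK1, a kinase induced by CREB, was downregulated at -1.19 with 36 to 129 counts per library, and its value is uncertain because a near-identical copy, SIK1B, is annotated. FKBP5 (-0.10, edgeR adjusted p = 0.0067), another glucocorticoid target, leaned lower within the fold threshold and was not called. NR4A1 (0.31, edgeR adjusted p = 0.0804) was higher in every O/A library and was called only with quantile normalization (0.35). CRTC2 (0.15) was also higher in every O/A library, within the fold threshold. NR4A2 and the other CRTC genes overlapped between the conditions and were not called. Of the 10 tested, 3 were thus upregulated and 1, SIK1, was downregulated. Every O/A library lay above every ethanol library for 5 of the 10 and below for 1, beside 22.8% and 24.8% of all genes. DUSP1 and TSC22D3 rose more than PER1 did, and whether either route acted on PER1 here was not tested.

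**Figure D4:**
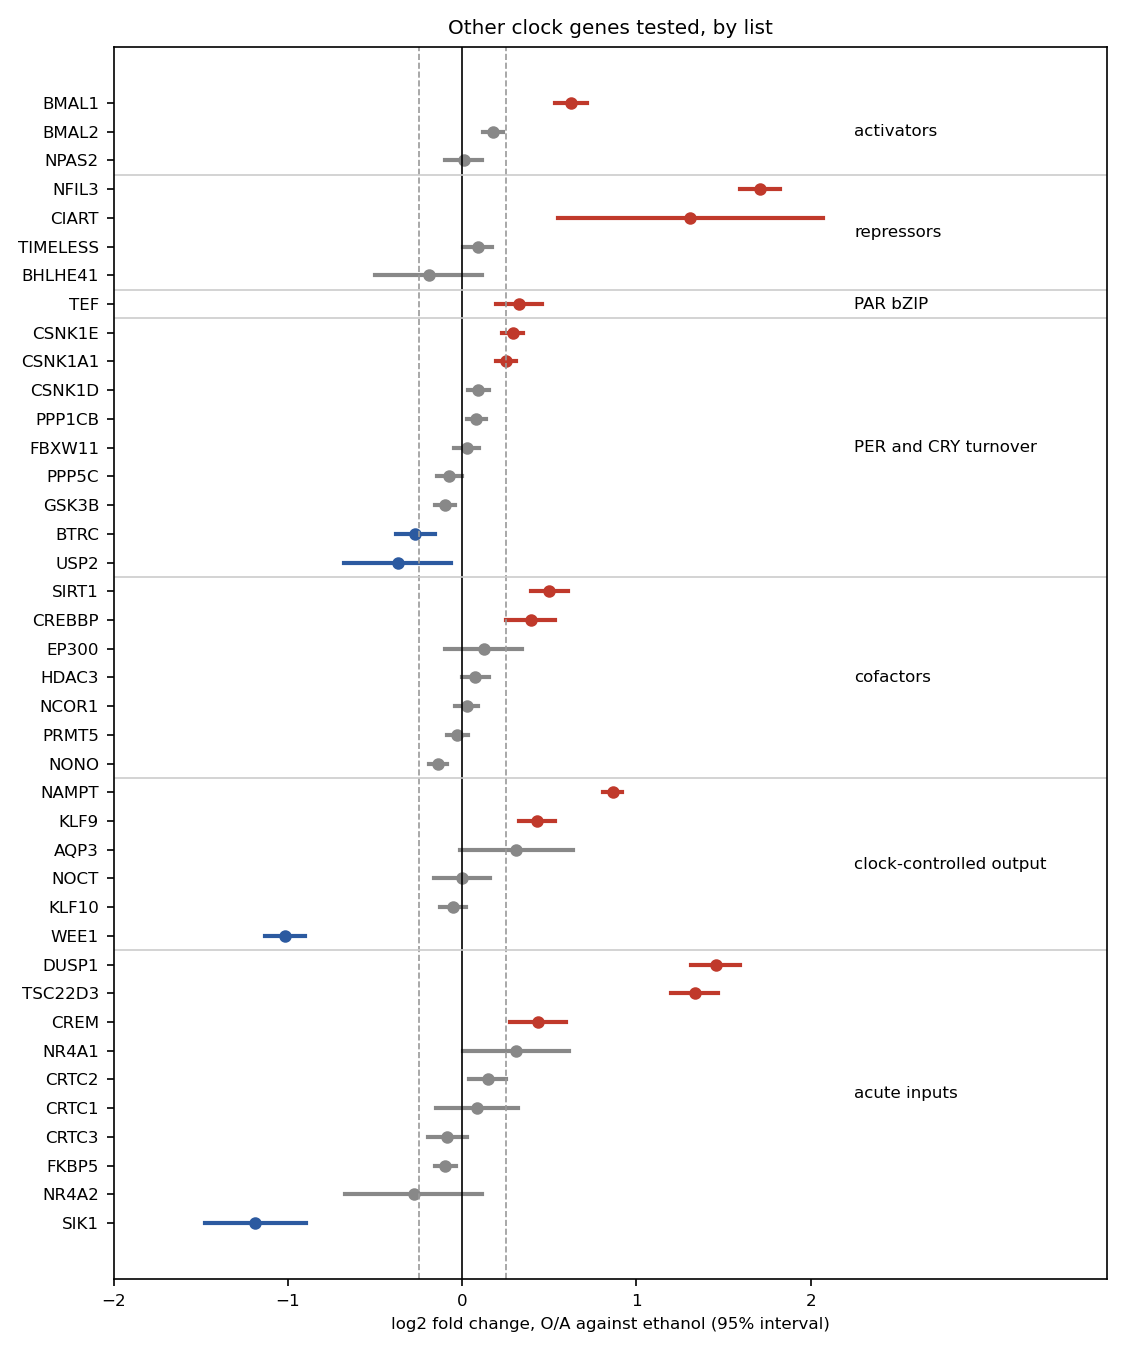
Log2 fold change of O/A against ethanol (horizontal axis) of the 40 other clock genes tested, grouped by list, with 95% intervals from edgeR. Red points are upregulated, blue downregulated and grey not called, and dashed lines mark 0.25 in each direction. NFIL3 lies highest at 1.71 and SIK1 lowest at -1.19.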

How the data were processed

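mRNA from 8 libraries was sequenced, and condition and replicate number were taken from the sample labels. The authors aligned paired-end reads with HISAT2 2.0.1 to GRCh38.p13 and made each count on Ensembl genes with HTSeq 0.6.1, versions per the submitters' processing notes. The Ensembl release and the strand setting are not given in the sources used here. The deposited counts are raw, and the authors derived the deposited FPKM values from them by exonic length and library total. A deposited table of the authors' DESeq2 comparison (means, fold changes, p-values) was not used.

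Genes that reached 10 counts in 4 or more libraries were tested with edgeR 4.0.16 in R 4.3.3 (TMM scaling, robust quasi-likelihood test, no block) and Benjamini-Hochberg adjustment over all of them. Each member was in addition compared by an exact permutation test on log2(CPM + 0.5). The rule for named genes was all members, every gene called from the lists of other clock genes, and genes whose annotation overlaps a member where the overlap bears on its counts. Uncalled or untested list genes that the text names (AQP3, FKBP5, BMAL2, NPAS2, TIMELESS, BHLHE41, NR4A1, NR4A2, NR4A3, the CRTC genes, RORA, RORB, HLF and ZBTB16) were chosen after their values were seen. The members and lists were chosen with earlier results of these data known, and some genes are not reported here. The tests were tested on simulated counts with known changes.

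The alternatives were DESeq2 1.42.0, limma 3.58.1 on log2(FPKM + 0.1) and log2(FPKM + 1), median-ratio scaling and quantile normalization, the tests without a filter or with a minimum mean FPKM of 1, a block on the replicate number, the omission of each library and other fold change thresholds. Gene coordinates are those of the authors' table, and 10 of 10 members have the same start and end in GENCODE v44. Depth limits genes with few reads, such as DBP and CIART.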

Additional observations from a re-analysis of the deposited data

Results flagged for a closer look

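Of 54 groups of 4 libraries examined (the 10 members and the 17 other clock genes called, in each condition), 2 held a library whose gap to the others was large for the range of its group, and chance gives about 1 in 20, or 2.7 of 54. The first was PER3 in ethanol, where library 1 had 12.7 CPM and the other ethanol libraries 10.9 to 11.2. Without that library the log2(FC) of PER3 was -0.09, against -0.15 on all libraries, and it was not called in either case. The other was KLF9 in O/A, where library 3 had 40.2 CPM and the others 42.3 to 42.5, still above all ethanol libraries.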

How the results depend on the processing

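The upregulation of NR1D1, PER1 and NR1D2 held in every alternative at the same fold threshold, with log2(FC) of 1.03 to 1.24, 0.60 to 0.77 and 0.45 to 0.54. PER2 and CRY2 lay within the fold threshold only with limma on log2(FPKM + 1), at 0.24 and 0.23, so that 3 members were called upregulated there. At an absolute log2(FC) above 1 only NR1D1 passed (1 member). With no fold threshold, 1 member, CLOCK, counted as downregulated. DBP changed sign without replicate 4 of ethanol (-0.13) or of O/A (-0.02), within a range of -0.13 to 0.23 over the libraries left out. Leaving out single libraries gave 5 upregulated members each time. Over all genes, limma on log2(FPKM + 1) called 1514 upregulated, against 2350 in the main analysis, no fold threshold gave 3868, and a threshold of 1 gave 382 upregulated and 415 downregulated. Of the other clock genes, 2 instead of 4 were called downregulated under the minimum mean FPKM of 1, and leaving out single libraries gave 2 to 4. The mean FPKM filter removed genes, and the other causes were not tested. Same-numbered libraries did not deviate together (r = 0.044, -0.003, -0.028 and 0.074). Such small correlations cannot show whether libraries of the same number came from the same experiment, and the labels do not say. With a block on the replicate number, 2354 genes were called upregulated and 2806 downregulated, and 5 members were upregulated and 0 downregulated, as without it.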
